A study of Mus musculus with 9 samples.

Results

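Autophagy encloses parts of the cytoplasm in a double membrane, the autophagosome, and delivers them to the lysosome, where acid hydrolases break them down. The lens relies on this route in its epithelium, while its fiber cells also lose their nuclei and organelles as they mature. *Atf4* encodes a transcription factor of the integrated stress response that is known in other cells to act on autophagy genes, and TFEB, TFE3 and MITF are the factors best known for driving lysosomal genes. The 41 genes described here are 27 genes of the autophagy machinery, 11 lysosomal genes and the 3 MiT/TFE factors. They were picked out by symbol from the 55416 genes in the count files, with earlier results of these data known, and all 41 were found and had enough counts to be tested.

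RNA was sequenced from the lenses of mouse embryos at E16.5, with 4 *Atf4* null and 5 wildtype libraries, each from the paired lenses of a single embryo. The null allele replaces exons 3 and 4 of *Atf4* with a neomycin cassette in every cell of the embryo, and the wildtype embryos were littermates from intercrosses of heterozygotes on a mixed C57Bl/6 and 129 background. No agent was given, embryos of both sexes were used, and the colony had not been genotyped for the *Bfsp2* deletion that some 129 strains carry. The deposited files hold raw counts, with 7440807 to 8696699 counts on genes per *Atf4* null library and 8409779 to 8906996 per wildtype library. The files are labelled with 1 sequencing lane while the methods describe 4, so whether these totals cover a whole library is not known.

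*Atf4* itself stood at 3.29, 8.64, 10.6 and 0.582 CPM (counts scaled to the size of the library by edgeR's TMM factors) in *Atf4* null libraries 1 to 4. Its level in the wildtype libraries ran from 119 to 155 CPM, so the genotype labels held in all 9 libraries. Lens fiber markers had the highest sum of the 9 marker lists in every library, although *Lim2* had no counts in any. Other tissue was also present. The summed level of 12 skeletal muscle markers was 9517 CPM in wildtype 5 against at most 51.1 CPM in the other wildtype libraries, and the summed neural retina markers ran from 306 to 820 CPM in *Atf4* null and from 197 to 289 CPM in wildtype libraries, with 4 of 11 tested retina markers higher in the *Atf4* null. In whole lenses, fewer cells of a type and less RNA per cell cannot be told apart.

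The genotypes were compared in edgeR (quasi-likelihood test), p-values were adjusted by Benjamini-Hochberg over the 14903 genes tested, and a gene was called at an adjusted p below 0.05. Of the 41 genes, 2 were called, *Rb1cc1* upward and *Wipi1* downward, both in the autophagy machinery. Without *Atf4* null 3 neither was called, and without *Atf4* null 2, wildtype 1, wildtype 2 or wildtype 4 only 1 of them was. The share called was 4.88% of the 41, against 5.9% of all genes tested (2.23% higher and 3.67% lower in the *Atf4* null). None of the 11 lysosomal genes and none of the MiT/TFE factors was called. The log2 fold changes of the 41 genes ran from -0.84 to 0.67 with a median of 0.03, and 29 lay within 0.25 of no change, as did 6534 of the 14903 genes tested. For 35 of them the 95% confidence interval lay inside a 2-fold change in either direction (within 1 on the log2 scale), as it did for 52.4% of all genes tested. The interval was inside 0.5 on that scale for 14, against 15.6% of all genes. The 41 genes were more highly expressed, with a median level of 51.4 CPM against 18 CPM over all genes tested. Their median interval width was 0.79 against 1.16 on the log2 scale. The part of expression level in these shares was not tested.

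**Figure D1:**
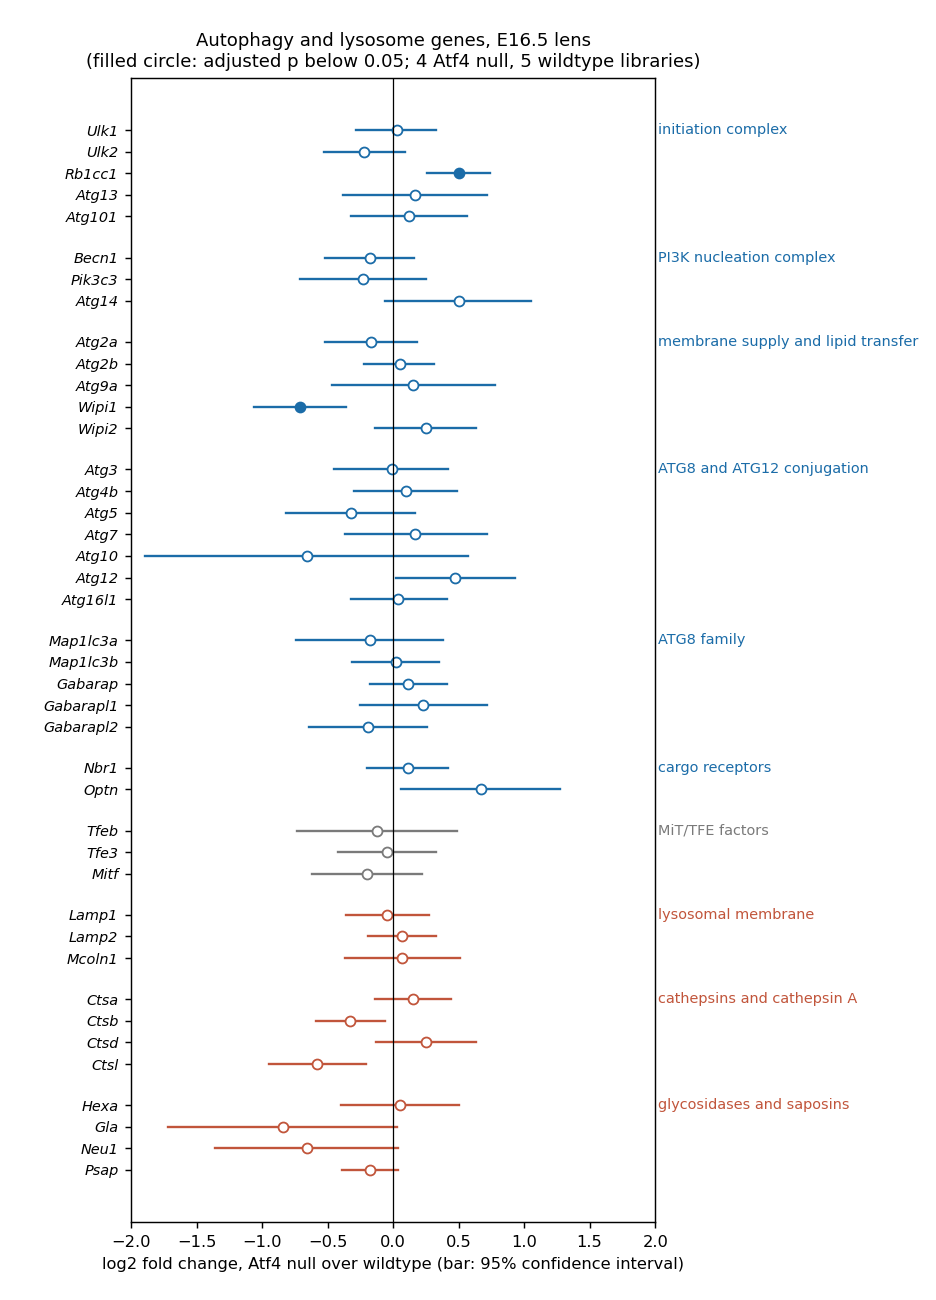
Log2 fold change (*Atf4* null over wildtype) of the 41 genes with its 95% confidence interval from edgeR's quasi-likelihood fit, grouped by role and coloured by list, over 4 *Atf4* null and 5 wildtype libraries. The filled points are *Rb1cc1* at 0.50 and *Wipi1* at -0.71. The widest interval is that of *Atg10*, from -1.89 to 0.57.

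*Rb1cc1* and *Wipi1* act at the start of autophagosome formation. RB1CC1, also called FIP200, is the scaffold of the ULK kinase complex, and WIPI1 binds the phosphatidylinositol 3-phosphate made on the forming membrane. The 300 bases before the start of each gene's canonical transcript in GENCODE vM39 are shown because these were the genes that changed. They are read 5′ to 3′ on the gene's own strand from GRCm39, the build of the files.
Rb1cc1 (chr1:6284530-6284829, plus strand): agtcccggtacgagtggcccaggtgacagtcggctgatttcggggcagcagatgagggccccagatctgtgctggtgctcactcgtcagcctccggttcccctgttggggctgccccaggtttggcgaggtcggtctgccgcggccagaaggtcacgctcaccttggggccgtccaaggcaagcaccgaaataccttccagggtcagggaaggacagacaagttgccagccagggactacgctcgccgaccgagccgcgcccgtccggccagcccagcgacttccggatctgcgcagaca
Wipi1 (chr11:109502278-109502577, minus strand): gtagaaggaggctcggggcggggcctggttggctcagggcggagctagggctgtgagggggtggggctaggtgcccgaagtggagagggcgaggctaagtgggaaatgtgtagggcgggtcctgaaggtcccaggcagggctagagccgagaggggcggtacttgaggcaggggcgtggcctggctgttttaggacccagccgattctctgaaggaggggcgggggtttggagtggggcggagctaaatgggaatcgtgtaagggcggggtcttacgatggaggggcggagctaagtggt
Both stretches were rich in G and C, at 66% for *Rb1cc1* and 65% for *Wipi1*. Neither held TGATGCAA, a form of the element that ATF4 binds with C/EBP partners, nor CACGTG, the E-box core that MiT/TFE factors bind, on either strand. Only exact words were searched, so other forms of such sites were not counted. No capitals are therefore used in them.

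*Rb1cc1* (ENSMUSG00000025907, chr1:6276421-6377444 of GRCm39, plus strand) stood at 122, 128, 140 and 148 CPM in *Atf4* null libraries 1 to 4 and at 87.2, 85.8, 106, 94.7 and 102 CPM in wildtype libraries 1 to 5. Every *Atf4* null library was above every wildtype library. The means were 135 ± 11.6 CPM (SD, n = 4) and 95.2 ± 9.01 CPM (SD, n = 5), a 1.41-fold rise with a log2 fold change of 0.50 (SE 0.11, 95% interval 0.26 to 0.74) and an adjusted p of 0.0175 by edgeR's quasi-likelihood test. The adjusted p was 0.0689 without *Atf4* null 3 and 0.0554 without wildtype 2, with log2 fold changes of 0.48 and 0.46. The log2 fold change was 0.53 without wildtype 5, the library with muscle markers. Retina marker sums were higher in every *Atf4* null than in every wildtype library, and their part in the *Rb1cc1* difference was not tested.

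*Wipi1* (ENSMUSG00000041895, chr11:109464156-109502793, minus strand) stood at 49.4, 70.5, 72.4 and 79.2 CPM in the *Atf4* null and at 142, 111, 92.9, 114 and 96.1 CPM in the wildtype libraries. The groups did not overlap here either, with every *Atf4* null library below every wildtype library. The means were 67.9 ± 12.9 CPM (SD, n = 4) and 111 ± 19.6 CPM (SD, n = 5), a 1.64-fold fall with a log2 fold change of -0.71 (SE 0.16, 95% interval -1.06 to -0.36) and an adjusted p of 0.0199 by the same test. This call was the less stable of the pair. The adjusted p passed 0.05 when *Atf4* null 2 (0.0579), *Atf4* null 3 (0.0522), wildtype 1 (0.0508) or wildtype 4 (0.0505) was left out, while the log2 fold change stayed between -0.80 and -0.58 over 17 alternatives.

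Markers of lens cells also differed between the genotypes. The summed lens fiber markers were 48325, 74754, 72061 and 115174 CPM in *Atf4* null libraries 1 to 4 and from 63095 to 116289 CPM in the wildtype libraries, with 5 of 14 tested markers called lower. The lens epithelium sum ran from 3573 to 5294 CPM in the *Atf4* null and from 5209 to 7690 CPM in the wildtype libraries, with 7 of 12 markers called lower. *Atf4* null 1 had the lowest of both sums and the lowest *Wipi1*. *Atf4* null 4 had the highest of both among the *Atf4* null libraries and the highest *Wipi1* of that genotype. In the wildtype the order differed, since wildtype 5 had the lowest of both sums while *Wipi1* was lowest in wildtype 3, with sums of 111291 and 7400 CPM. The part of lens tissue makeup in the *Wipi1* difference was not tested.

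**Figure D2:**
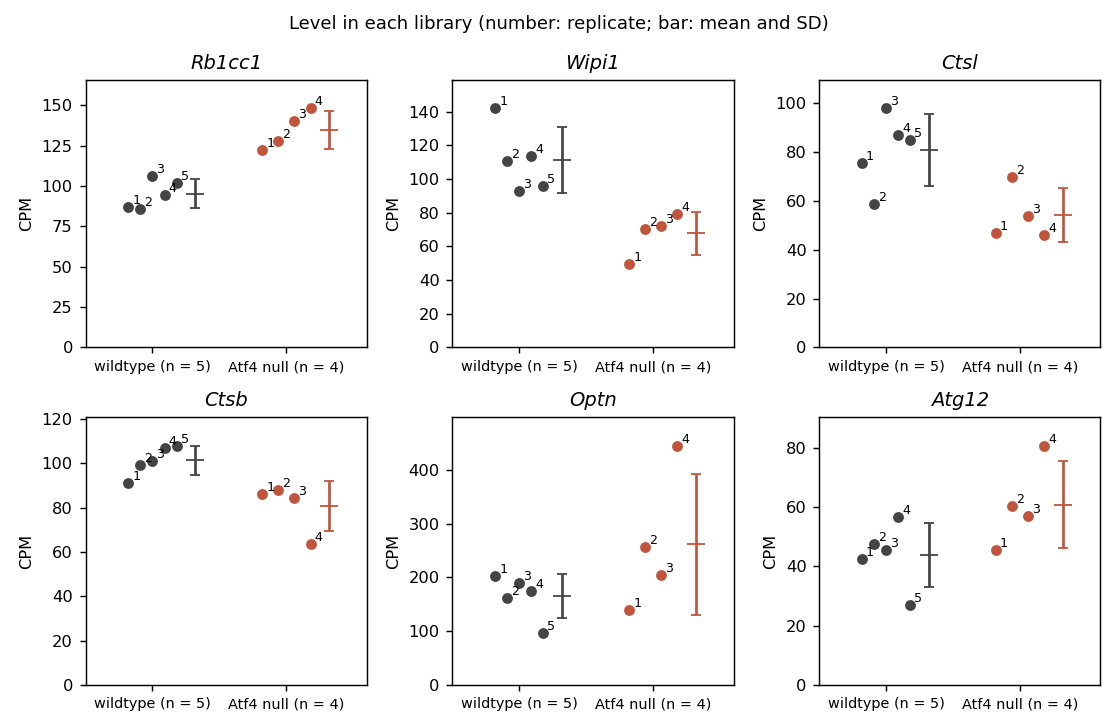
Levels in CPM (TMM-scaled, linear axes from 0) of the 2 called genes and the 4 nearest to the threshold in each library, with replicate numbers beside the points and the mean and SD at the right of each group. The genotypes are separate for *Rb1cc1*, *Wipi1* and *Ctsb*, and the *Atf4* null 4 library stands highest for *Optn* at 445 CPM.

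The other genes of the initiation complex did not pass the test. ULK1 and ULK2 are its kinases, and ATG13 and ATG101 link them to RB1CC1. *Atg101*, the member of this complex with the highest level per exon length, stood at 15.8, 19.9, 19 and 27.7 CPM in the *Atf4* null and at 18.7, 21.8, 16.7, 18.4 and 19.1 CPM in the wildtype libraries. The log2 difference between genotypes was 0.12 (95% interval -0.32 to 0.56). *Ulk1* differed by 0.03 (-0.28 to 0.33) and *Ulk2* by -0.22 (-0.53 to 0.09). The difference between *Rb1cc1* and the kinase genes was not tested.

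The class III PI3-kinase complex makes the phosphatidylinositol 3-phosphate that WIPI proteins read. *Becn1*, which encodes its scaffold Beclin 1, stood at 77.7, 75.3, 78.4 and 107 CPM in the *Atf4* null and at 87.8, 89.2, 123, 104 and 74.7 CPM in the wildtype libraries, and the groups overlapped. The log2 fold changes were -0.18 for *Becn1* (-0.52 to 0.16), -0.23 for the catalytic subunit *Pik3c3* (-0.71 to 0.25) and 0.50 for *Atg14* (-0.06 to 1.05), which directs the complex to autophagosome formation. None passed the test, with adjusted p-values from edgeR of 0.602, 0.645 and 0.321. *Atg14* had the same fold change as *Rb1cc1*, 1.41, with an SE of 0.26 in place of 0.11.

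*Wipi2*, the paralog of *Wipi1*, recruits the conjugation machinery to the membrane. Its levels were 109, 149, 114 and 193 CPM in the *Atf4* null and 122, 129, 123, 135 and 84.9 CPM in the wildtype libraries, with a log2 fold change of 0.25 (-0.14 to 0.63) that did not pass the test. Per exon length, as CPM divided by kilobases of exon (FPKM), *Wipi1* was the higher of the pair in wildtype lenses at 19.2 ± 3.39 (SD, n = 5) against 11 ± 1.83 for *Wipi2*. In CPM the wildtype means were 111 and 119, so this ranking rests on the exon lengths used. In the *Atf4* null the values were 11.7 ± 2.22 and 13 ± 3.62 (SD, n = 4). *Wipi1* thus supplied 58.6% to 68.5% of the FPKM of the pair in wildtype and 43.3% to 54.3% in *Atf4* null libraries, and these ranges did not overlap. In 4 other pairs the ranges of the shares overlapped. The mean shares in *Atf4* null and wildtype lenses were 46.7% and 42.6% for *Ulk1* beside *Ulk2*, 46% and 49.7% for *Atg2a* beside *Atg2b*, 90.2% and 91% for *Lamp1* beside *Lamp2*, and 51.5% and 54.4% for *Map1lc3a* beside *Map1lc3b*. The lipid transfer proteins ATG2A and ATG2B and the scramblase ATG9A feed the growing membrane, and the log2 fold changes of their genes lay between -0.17 and 0.15.

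Conjugation attaches ATG12 to ATG5 and the ATG8 proteins to lipid. *Atg12*, the ubiquitin-like protein of the first reaction, stood at 45.4, 60.2, 57 and 80.7 CPM in the *Atf4* null and at 42.6, 47.4, 45.5, 56.5 and 27.1 CPM in the wildtype libraries. The *Atf4* null values were higher on average, with a log2 fold change of 0.47 (0.02 to 0.93), but the adjusted p was 0.234 by edgeR's quasi-likelihood test. The highest value came from *Atf4* null 4 and the lowest from wildtype 5, and without these libraries the log2 fold change was 0.30 and 0.35. The ATG12 partner *Atg5* differed by -0.32 (-0.82 to 0.17), and *Atg16l1*, which binds the conjugate, by 0.04 (-0.32 to 0.41). The enzymes *Atg3* and *Atg7* and the protease *Atg4b* lay between -0.01 and 0.17. *Atg10*, at 5 to 42 counts per library, was measured too thinly for a narrow interval.

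The ATG8 proteins are the lipid-bound tags of the autophagosome, in an LC3 and a GABARAP branch. *Gabarap* stood highest among them per exon length, at 25 ± 2.44 FPKM in wildtype (SD, n = 5) and 27 ± 3.6 FPKM in *Atf4* null lenses (SD, n = 4). *Gabarapl1* followed at 17.6 ± 4 and 20.7 ± 6.28 FPKM, and in wildtype 5 it was as low as 40.3 CPM against 62.5 to 77 CPM in the other wildtype libraries. *Map1lc3a*, *Map1lc3b* and *Gabarapl2* formed a lower tier whose wildtype means, 8.61 ± 2.15, 7.07 ± 1.09 and 6.65 ± 1.57 FPKM (SD, n = 5), did not differ beyond their spread. In CPM the wildtype means were 65 for *Gabarapl1*, 56.4 for *Gabarap*, 53.8 for *Map1lc3b*, 29.1 for *Gabarapl2* and 11.3 for *Map1lc3a*. The tiers thus rest on the exon lengths used. By FPKM the family was headed by the same genes in both genotypes. *Gabarap* supplied 38.6% of the summed FPKM of the 5 genes in wildtype and 39.8% in *Atf4* null lenses, and the log2 fold changes of the 5 genes lay between -0.19 and 0.23 with none called.

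Library by library, *Gabarap* was at 52.4, 57.5, 62.3 and 71.5 CPM in the *Atf4* null and at 61.8, 53.7, 59.5, 58.9 and 48.1 CPM in the wildtype. *Gabarapl1* was at 46.2, 94.2, 70.3 and 95.2 CPM and at 77, 72.7, 72.4, 62.5 and 40.3 CPM in the same order. *Gabarapl2* was at 21.4, 26.9, 25.2 and 28.2 CPM and at 31.5, 36.3, 28.3, 31.4 and 17.9 CPM. All of these overlapped between genotypes. *Map1lc3a* was at 9.87, 9.96, 9.98 and 10.2 CPM and at 7.96, 10.5, 9.88, 13.3 and 15.1 CPM, and *Map1lc3b* at 49.8, 61.7, 47.8 and 59.4 CPM and at 50.2, 57.5, 63.5, 56.3 and 41.5 CPM. The *Atf4* null values of *Map1lc3a* fell inside its wildtype range.

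**Figure D3:**
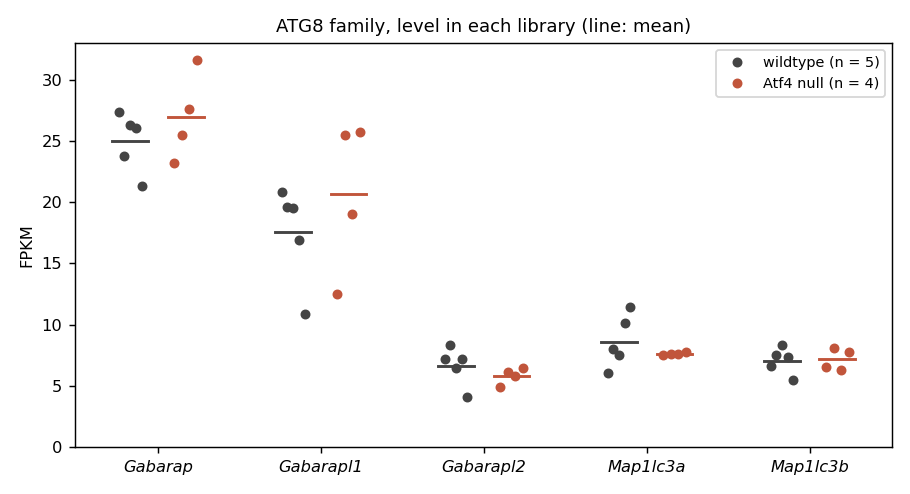
FPKM (linear axis from 0) of the 5 ATG8 genes in each library, with a line at the mean of 5 wildtype and 4 *Atf4* null libraries. *Gabarap* and *Gabarapl1* lie above the other members in their means for both genotypes, and every gene's libraries overlap between genotypes.

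Cargo receptors tie ubiquitinated cargo to ATG8 proteins. *Nbr1* stood at 147, 229, 198 and 242 CPM in the *Atf4* null and at 209, 192, 190, 194 and 159 CPM in the wildtype libraries, with a log2 fold change of 0.11 (-0.20 to 0.42). *Optn*, which encodes optineurin (ENSMUSG00000026672, chr2:5022703-5068945), had the highest positive log2 fold change of the 41 genes at 0.67 (SE 0.28, 0.06 to 1.27), with an adjusted p of 0.206 by edgeR's quasi-likelihood test. Its values were 140, 257, 205 and 445 CPM in the *Atf4* null and 202, 162, 190, 174 and 96.1 CPM in the wildtype libraries. *Atf4* null 1 lay below 4 of the 5 wildtype libraries, and *Atf4* null 4 was far above the rest. Without *Atf4* null 4 the difference shrank to 0.28 on the log2 scale (adjusted p 0.576, edgeR).

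The genes for the MiT/TFE factors were expressed at low to moderate levels, with wildtype means of 1.3 ± 0.126 FPKM for *Tfeb*, 3.55 ± 0.509 FPKM for *Tfe3* and 6.23 ± 1.46 FPKM for *Mitf* (SD, n = 5). *Tfeb* stood at 6.28, 8.04, 7.24 and 11.4 CPM in the *Atf4* null and at 8.73, 9.87, 8.89, 9.49 and 7.6 CPM in the wildtype libraries. *Tfe3* stood at 29.7, 33.7, 38.3 and 26.6 CPM against 35.8, 36, 26.6, 29.7 and 37.6 CPM, and *Mitf* at 50.2, 44.6, 53.4 and 72.1 CPM against 54.6, 80.1, 64.5, 73.7 and 43 CPM. All 3 overlapped between genotypes, with log2 fold changes of -0.12 (-0.73 to 0.49), -0.05 (-0.42 to 0.33) and -0.20 (-0.62 to 0.22) and no unadjusted p below 0.05. With library size scaling *Tfe3* was at 0.08. *Mitf* is also a gene of pigment cells, whose marker sum ran from 45.9 to 120 CPM in the *Atf4* null and from 31.1 to 166 CPM in the wildtype libraries, with *Rpe65* at 0 in all and 0 of 5 tested markers called. These values are of RNA, and the activity of MiT/TFE factors is set largely by their location in the cell.

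The E-box core CACGTG, read the same on both strands, stood near the starts of a larger share of lysosomal than of autophagy genes, a difference that was not tested. Within 500 bases on either side of the start it occurred in 7 of 11 lysosomal genes (63.6%), 6 of 27 autophagy genes (22.2%) and 20% of the 14863 tested genes with a mapped start. In the 300 bases before the start it occurred in 3 of 11 (*Ctsd*, *Gla* and *Lamp1*), 1 of 27 (*Gabarap*) and 8.13%. In further genes of both routes the contrast was smaller, at 18 of 45 lysosomal and 9 of 34 autophagy genes in the wide window, and 9 of 45 and 6 of 34 before the start. The V-ATPase genes had CACGTG in 9 of 16 and 2 of 16. These are counts of a short word and not of bound sites, and the median G and C content of the wide windows was 58.8% for the lysosomal, 59.5% for the autophagy and 57.8% for all genes. The stretches around the matches before the start are shown 5′ to 3′ on the gene's strand, with CACGTG in capitals.
Ctsd (chr7:141941777-141941836, minus strand): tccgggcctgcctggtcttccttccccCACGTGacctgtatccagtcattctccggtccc
Gla (chrX:133501916-133502008, minus strand): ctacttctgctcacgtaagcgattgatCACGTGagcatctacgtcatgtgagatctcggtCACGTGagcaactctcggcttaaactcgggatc
Lamp1 (chr8:13209073-13209120, plus strand): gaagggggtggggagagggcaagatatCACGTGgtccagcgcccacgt
Gabarap (chr11:69881819-69881878, plus strand): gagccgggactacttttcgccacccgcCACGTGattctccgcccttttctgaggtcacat
The match began 34 bases before the start in *Ctsd* and 42 bases before it in *Gabarap*, while *Gla* had matches at 77 and 44 bases. *Lamp1* held further matches at 5 bases before the start and after it. TGATGCAA, the only form of that element searched, was in none of the 41 genes and in 1.62% of all genes, on both strands within 500 bases. Its absence does not show that ATF4 sites are absent. Among the 4 genes shown, the log2 fold changes were 0.25, -0.84, -0.05 and 0.11 in the order listed, and none was called.

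Lysosomal membrane genes differed little between genotypes. *Lamp1*, a major glycoprotein of that membrane (ENSMUSG00000031447, chr8:13209121-13227360, plus strand), stood at 186, 226, 256 and 309 CPM in the *Atf4* null and at 246, 279, 279, 245 and 212 CPM in the wildtype libraries. The *Atf4* null libraries lay on both sides of the wildtype range, and the log2 fold change was -0.05 (-0.36 to 0.27). *Lamp2*, which also takes part in chaperone-mediated autophagy, and *Mcoln1*, a calcium channel of the lysosome, each differed by 0.07. The interval was -0.19 to 0.33 for *Lamp2* and -0.37 to 0.51 for *Mcoln1*.

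The cathepsin genes had estimates in both directions, and none was called. *Ctsl*, a cysteine protease (ENSMUSG00000021477, chr13:64507151-64518704, minus strand), was at 46.8, 69.8, 53.8 and 45.9 CPM in the *Atf4* null and at 75.6, 58.5, 97.8, 87 and 84.8 CPM in the wildtype libraries. Only *Atf4* null 2 and wildtype 2 overlapped. The means were 54.1 ± 11.1 CPM (SD, n = 4) and 80.7 ± 14.7 CPM (SD, n = 5), with a log2 fold change of -0.58 (SE 0.17, -0.95 to -0.21) and an adjusted p of 0.0698 by edgeR's quasi-likelihood test. DESeq2, which called 9.37% of all genes, gave 0.0277, the fit with no filter on low counts 0.0396, the fit without *Atf4* null 2 0.0451 and the fit without wildtype 2 0.0408, and the range over 17 alternatives was 0.0277 to 0.17.

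*Ctsb*, a second cysteine protease (ENSMUSG00000021939, chr14:63358384-63383372, plus strand), was at 86.4, 88.1, 84.5 and 63.8 CPM in the *Atf4* null and at 91.3, 99.5, 101, 107 and 108 CPM in the wildtype libraries. Although the groups did not overlap, as for 10.2% of all genes tested, the adjusted p was 0.148 by edgeR's quasi-likelihood test (log2 fold change -0.33, -0.59 to -0.06), and it ran from 0.124 to 0.519 over the alternatives. *Ctsd*, the aspartic protease (ENSMUSG00000007891, chr7:141929646-141941775, minus strand), stood at 66.5, 109, 81.4 and 129 CPM against 83.7, 90.1, 70, 89.1 and 71.5 CPM, a difference of 0.25 (-0.13 to 0.63). *Ctsa*, a carboxypeptidase that also protects NEU1, differed by 0.15. Macrophages are a rich source of cathepsin RNA, and the sum of 12 macrophage markers was 112 to 135 CPM in the *Atf4* null and 102 to 124 CPM in the wildtype libraries, with 0 called. The part of macrophages in the cathepsin levels was not tested.

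Per exon length *Ctsd* was the most abundant of the 3 endoproteases, at 29.2 ± 3.45 FPKM in wildtype (SD, n = 5) and 34.9 ± 10.1 FPKM in *Atf4* null lenses (SD, n = 4). *Ctsl* supplied 16.1% to 27.6% of the summed FPKM of *Ctsb*, *Ctsd* and *Ctsl* in wildtype and 11.1% to 17% in *Atf4* null libraries, so the ranges overlapped. Exons of *Ctsd*, *Atg9a* and *Ctsl* are shared on the same strand with gene models that held no counts, over 29.2%, 25.2% and 5.92% of their length. How reads over these shared bases were assigned is not given in the sources used here, so the levels of these genes are uncertain to that extent.

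*Psap*, the precursor of the saposins that help glycosidases reach lipids (ENSMUSG00000004207, chr10:60113431-60138380, plus strand), had the highest FPKM of the 41 genes. It stood at 173, 193, 181 and 173 CPM in the *Atf4* null and at 188, 224, 195, 205 and 208 CPM in the wildtype libraries, and only *Atf4* null 2 exceeded the lowest wildtype value. The difference of -0.18 on the log2 scale (-0.39 to 0.04) did not pass the test (adjusted p 0.36, edgeR). The glycosidases *Gla* and *Neu1* had lower point estimates, -0.84 and -0.66, but wide intervals of -1.72 to 0.03 and -1.36 to 0.04. *Neu1* stood at 35.2 CPM in wildtype 1 and at 12.7 to 25.8 CPM in the other wildtype libraries. Leaving out 1 library gave -0.79 to -0.38 for *Neu1* and -0.99 to -0.62 for *Gla*. *Gla* ran from 3.2 to 3.84 CPM in the *Atf4* null and from 3.75 to 10.3 CPM in the wildtype libraries, with a wildtype median of 6.66 CPM. *Hexa*, a subunit of beta-hexosaminidase, differed by 0.05 (-0.40 to 0.50).

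The autophagy and lysosome lists were set side by side. The log2 fold changes had a median of 0.05 over the 27 autophagy genes, -0.05 over the 11 lysosomal genes and 0.00 over all genes tested. Of the autophagy genes, 17 were higher and 10 lower in the *Atf4* null, and of the lysosomal genes 5 were higher and 6 lower. At an unadjusted p below 0.05 in the edgeR test, 3 autophagy genes were higher and 1 lower, while the lysosomal genes at that level, *Ctsb* and *Ctsl*, were both lower. Over all genes tested that share was 19.6%, with 9.31% higher and 10.2% lower. By edgeR's exactTest, the test the study used, the called autophagy genes were the same and no lysosomal gene was called, against 7.11% of all genes. Without *Atf4* null 4 the autophagy median was -0.022 and without wildtype 2 it was 0.093. Without *Atf4* null 1 the lysosomal median was 0.069 and without *Atf4* null 4 it was -0.163. Library size in place of TMM scaling put the median of all genes at 0.125 and raised the share of higher genes among all called from 37.8% to 64.3%. With that scaling the medians were 0.176 for autophagy and 0.063 for lysosome genes. The difference between the lists was not tested.

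Part of the variation within each genotype was carried by single libraries. *Atf4* null 4 had the highest *Atf4* null value for 25 of the 41 genes (61%), against 31.4% of all genes tested, and *Atf4* null 1 the lowest for 22 (53.7%), against 27.8%. Among the wildtype libraries, wildtype 5 was lowest for 20 (48.8%), against 28.9%. The same libraries stood apart in lens fiber markers, at the high end of the *Atf4* null for *Atf4* null 4 and at the low end of their genotypes for *Atf4* null 1 and wildtype 5. The TMM factors of these libraries were also at the ends of their genotypes, at 0.9253 for *Atf4* null 4, 1.159 for *Atf4* null 1 and 1.056 for wildtype 5. The parts of tissue makeup and of scaling in these levels were not tested. Without *Atf4* null 1, *Atf4* null 4 or wildtype 5, *Rb1cc1* and *Wipi1* remained the called autophagy genes.

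**Figure D4:**
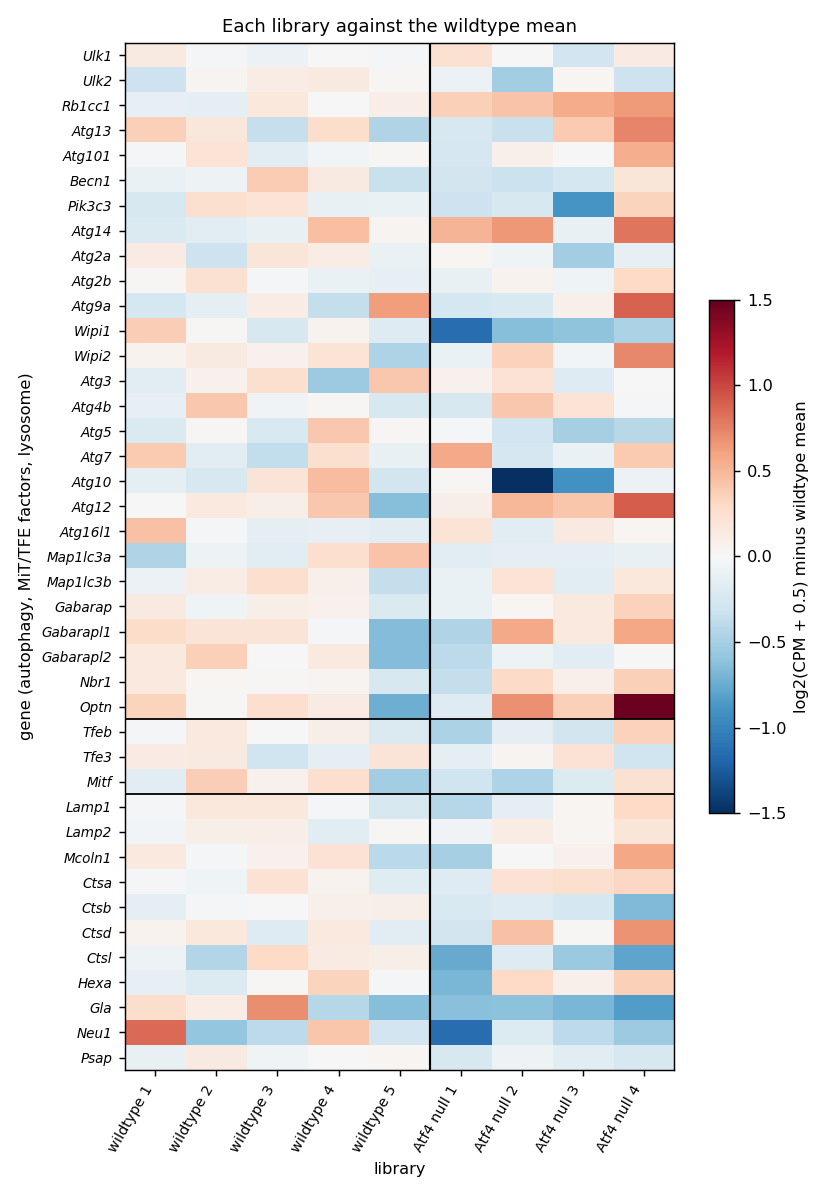
Level of each of the 41 genes in each of 9 libraries as log2(CPM + 0.5) minus the wildtype mean, red for higher and blue for lower, with colours saturating at 1.5, and lines between genotypes and between the autophagy, MiT/TFE and lysosome genes. *Rb1cc1* is red and *Wipi1* blue in all 4 *Atf4* null libraries, and *Atf4* null 4 is highest of its genotype for 25 genes.

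Other genes of the same routes were examined in 3 lists written from general knowledge, with earlier results of these data known. Of 33 further autophagy genes tested, 3 were called higher and 1 lower (12.1%, against the background of 5.9%). The study had already reported *Sqstm1* as higher in these data, so this share is not an independent result. *Sqstm1*, the cargo receptor p62, was at 159, 252, 245 and 465 CPM in the *Atf4* null and at 107, 106, 93.5, 89.4 and 85.7 CPM in the wildtype libraries, a log2 fold change of 1.54 (SE 0.23) with an adjusted p of 0.00157 in the edgeR fit. *Trp53inp1*, a p53 target whose protein binds ATG8 proteins, rose by 1.48 (SE 0.21, adjusted p 0.00112), and *Tmem41b*, a scramblase of the endoplasmic reticulum, by 1.02 (SE 0.24, adjusted p 0.0247). *Bnip3*, a mitophagy receptor and target of hypoxia signalling, was lower at -1.07 (SE 0.17, adjusted p 0.002). The log2 fold change of *Sqstm1* was larger than those of the cargo receptors *Nbr1* and *Optn*, a difference that was not tested, and the highest value of *Sqstm1*, like that of *Optn*, was in *Atf4* null 4.

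Of 43 further lysosomal genes tested, 1 was called higher and 2 lower (6.98%). *Scarb2*, a membrane protein that carries glucocerebrosidase to the lysosome, was at 84.1 to 108 CPM in the *Atf4* null and 56.9 to 72.4 CPM in the wildtype libraries, with a log2 fold change of 0.63 (SE 0.13, adjusted p 0.0092 by edgeR). *Galns*, a sulfatase, was lower at -1.10 (SE 0.25, adjusted p 0.019), as was the cysteine protease *Ctsf* at -0.55 (SE 0.14, adjusted p 0.0352). None of the 16 genes of the V-ATPase, the pump that acidifies the lysosome, was called by edgeR's quasi-likelihood test, while 2 had an unadjusted p below 0.05, against 19.6% of all genes tested, and DESeq2 called 1, *Atp6v1h*, against 9.37%. The medians of the 3 lists were 0.00, -0.01 and -0.01, close to that of all genes tested. The calls of *Sqstm1*, *Trp53inp1*, *Bnip3* and *Scarb2* held in all 17 alternatives, those of *Galns* in 12, and those of *Tmem41b* and *Ctsf* in 10. Under the replicate block, *Tmem41b* had an adjusted p of 0.0631.

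**Figure D5:**
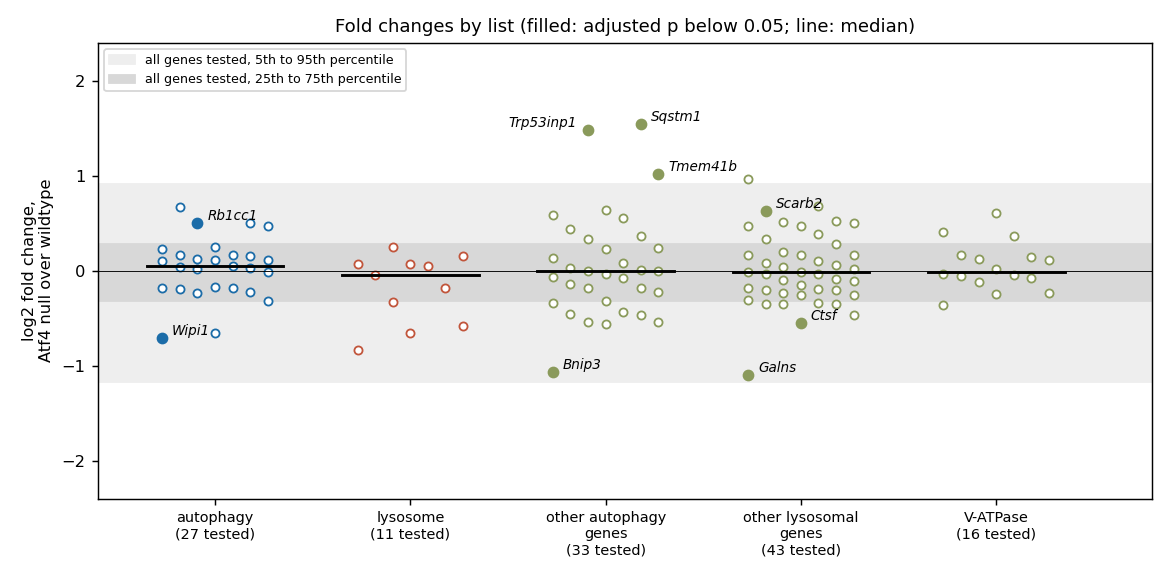
Log2 fold change (*Atf4* null over wildtype) of every tested gene of the autophagy and lysosome lists and of the 3 wider lists, with filled points for genes with an adjusted p below 0.05 by edgeR, a line at each median and grey bands for all genes tested. The medians lie between -0.05 and 0.05, and the filled points farthest from 0 are *Sqstm1* and *Trp53inp1*.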

How the data were processed

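Lens RNA of 4 *Atf4* null and 5 wildtype embryos was compared, with groups and replicate numbers from the sample titles. Wildtype titles and library names disagree on numbers, so those numbers are uncertain. The authors trimmed reads (Trim Galore), removed those aligning to ribosomal RNA and aligned the rest (HISAT2, GRCm39), and deposited raw HTSeq counts per Ensembl gene, without normalization. The strand setting is not given in the sources used here, and opposite-strand genes overlap several exons (49.2% of the exon length of *Lamp1* and 43.8% of that of *Becn1*). HTSeq's 5 summary entries, 44.6% to 47.7% of the reads of a library, were left out. In no pair of libraries did counts agree within sampling noise.

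Genes were tested with edgeR 4.0.16 in R 4.3.3 (filterByExpr, TMM, glmQLFit and glmQLFTest) on all 9 libraries by genotype alone, with Benjamini-Hochberg adjustment and a threshold of 0.05. The scripts were tested on simulated data. FPKM divide CPM by summed exon length (GENCODE vM39). The reads were counted on an Ensembl annotation of another release, so FPKM rankings between genes depend on the exon lengths used. Comparisons of a gene between genotypes do not. P-values measure the spread between embryos, and the 7440807 to 8906996 counts per library limit precision for weak genes. Alternatives were DESeq2 1.42.0, edgeR's exactTest, library size scaling, TMM factors without crystallins, no low-count filter, a minimum of 10 counts in each library, a robust fit, a replicate block and each library left out. Promoters were read from GRCm39 with Python 3.11.15.

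The members and lists were chosen with earlier results of these data known. Values in every library are given for called genes, the 4 nearest the threshold, the gene of highest FPKM in each role, the MiT/TFE and the ATG8 genes, and wider-list genes are named where called. Marker lists were lens fiber, lens epithelium, retina, muscle, mesenchyme, macrophage, pigment cell, blood and endothelium.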

Additional observations from a re-analysis of the deposited data

Results flagged for a closer look

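The highest or lowest library of a group stood apart from the nearest other by Dixon's criterion in 5 of 82 groups of values (41 genes in each genotype), where chance gives about 4.1 at 1 in 20. *Becn1* was high in *Atf4* null 4, at 107 CPM against 78.4 CPM in the next library, and *Ctsb* was low there, at 63.8 CPM against 84.5 CPM. *Wipi2* was low in wildtype 5, at 84.9 CPM against 122 CPM. In wildtype 1, *Ulk2* was low at 60.3 CPM against 76.2 CPM, and *Atg16l1* was high at 49.6 CPM against 35.9 CPM.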

How the results depend on the processing

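*Rb1cc1* and *Wipi1* kept their directions in all 17 alternatives, and their calls in 15 and 13. Leaving out 1 library at a time gave 527 to 1207 called genes of all tested, 0 to 2 autophagy genes (0 without *Atf4* null 3, where neither was called), 0 to 1 lysosomal genes and 1 to 4 further lysosomal genes (1, *Scarb2*, without *Atf4* null 2, *Atf4* null 3, wildtype 2, wildtype 3 or wildtype 4). The medians then ran from -0.022 to 0.093 for autophagy and from -0.163 to 0.069 for lysosomal genes. DESeq2 called 1397 genes of all tested against 880, with 1 lysosomal gene (*Ctsl*) and 1 V-ATPase gene. The fit with no low-count filter called 1 lysosomal gene, again *Ctsl*, and library size scaling 1 V-ATPase gene. With library size scaling the medians were 0.176 for autophagy and 0.063 for lysosomal genes. The causes were not tested.

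Signs turned for genes near no change. With library size scaling, *Atg3* was at 0.10, *Tfe3* at 0.08 and *Lamp1* at 0.06. Leaving out 1 library gave -0.04 to 0.12 for *Ulk1*, -0.06 to 0.32 for *Atg13*, -0.06 to 0.23 for *Atg101*, -0.05 to 0.11 for *Atg2b*, -0.18 to 0.36 for *Atg9a*, -0.13 to 0.10 for *Atg3*, -0.02 to 0.21 for *Atg4b*, 0.00 to 0.17 for *Atg16l1*, -0.05 to 0.09 for *Map1lc3b*, -0.14 to 0.03 for *Tfe3*, -0.18 to 0.07 for *Lamp1*, -0.14 to 0.23 for *Mcoln1* and -0.06 to 0.24 for *Hexa*. The minimum of 10 counts in each library left out *Atg10* and *Atf4*, which have no value there.

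Same-numbered libraries did not deviate together (correlations of -0.0634, -0.00727, -0.031 and -0.0655), so no pairing by number was seen. Because the wildtype numbers are uncertain, this cannot exclude a pairing under other numbers, and a pairing by litter was not tested. With the number as a replicate block over replicates 1 to 4, 873 genes of all tested and the same 2 autophagy genes were called, *Rb1cc1* at 0.53 and *Wipi1* at -0.76, and signs turned for *Atg3* (0.12), *Map1lc3b* (-0.06), *Tfe3* (0.00) and *Mcoln1* (-0.06).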

Other observations

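Skeletal muscle and mesenchyme markers stood apart in wildtype 5, with summed mesenchyme markers of 14535 CPM against 273 to 323 CPM in the other wildtype libraries. In *Atf4* null libraries 1 to 4 they stood at 475, 599, 371 and 244 CPM. *Pdgfra*, the 1 of 9 tested that was called (lower, log2 fold change -3.36), stood at 6.7 to 26.2 CPM in the *Atf4* null. In wildtype libraries 1 to 5 it stood at 227, 188, 198, 180 and 258 CPM. It thus made up most of the mesenchyme sum in wildtype 1 to 4, so that sum is largely the level of 1 gene there. *Col1a1* followed another order, at 93.6 to 146 CPM in the *Atf4* null. It stood at 8.99, 20.4, 17.3 and 29.1 CPM in wildtype 1 to 4 and at 6600 CPM in wildtype 5. Blood markers ran from 182 to 254 CPM in the *Atf4* null and from 231 to 740 CPM in the wildtype libraries, with 1 of 6 called lower, and endothelium markers from 212 to 505 CPM and from 400 to 691 CPM, with 0 of 9 called.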
